A study of Mus musculus with 4 samples.

Results

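The 49 DNA replication factors described here are the genes that build, load and supply the replication machinery of a dividing cell. Their transcripts were measured on 4 Affymetrix mouse arrays with RNA from J1 mouse embryonic stem cells. Members were all probe sets (groups of short oligonucleotides read together as 1 signal) that the platform annotation assigns to a listed gene and to no other. The rule found 107 probe sets for the 49 genes, among 45101 probe sets on the array. Each gene is described at its brightest probe set (mean log2 signal over the 4 arrays), and all 49 genes lay in the top 60% of probe sets and were tested, as were 100 of the 107 probe sets.

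All 4 arrays came from the inducible RNAi line Chd4i-1, made in J1 cells and carrying a doxycycline-switched construct that targets Chd4. Chd4 is the remodelling ATPase in the NuRD complex, which also removes acetyl groups from histones. The 2 control arrays came from Chd4i-1 cells without doxycycline, and the 2 knockdown arrays from the same line given 5 ng/ml doxycycline for 3 days. Cells of both groups grew on gelatin in medium with 15% serum and 1000 U/ml leukaemia inhibitory factor. Only this line was analysed here, so effects of doxycycline, of RNAi itself and of Chd4 loss cannot be told apart. The submitters describe duplicate arrays as biological, and 2 arrays a group limit the precision of every value.

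Replication starts when the origin recognition complex, with Cdc6 and Cdt1, loads the ring-shaped MCM2-7 helicase onto DNA. Kinases then recruit Cdc45 and the GINS complex, which turn the ring into an active helicase. Polymerase alpha with primase lays down primers, replication factor C loads the sliding clamp Pcna, polymerases delta and epsilon extend the strands, and replication protein A coats the single strands. Embryonic stem cells have a short G1 phase and spend much of their cycle in S phase, and they are known for high levels of many of these factors.

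Chd4 was lower at each of its 3 probe sets, at log2 differences between -1.05 and -0.62 (adjusted p between 0.000244 and 0.00638). Pearson's r of log2 signal across the 12615 genes tested was 0.986 and 0.985 within the groups and 0.968 to 0.969 between them. Of 8 embryonic stem cell markers, Esrrb and Klf4 fell, Utf1 and Dppa5a rose, and Pou5f1, Sox2, Nanog and Zfp42 did not pass. Their summed signal was 98300 and 99384 in the controls, against 101031 and 99188 under knockdown. Of 8 fibroblast markers 3 were bright enough to test and Thy1 rose, with sums of 479 and 563 against 894 and 794. Thy1 alone had 175.6 and 199.5 against 600.6 and 546.8. Of 8 primitive endoderm markers 6 were tested and Lama1 fell, with sums of 759 and 749.8 against 761 and 677. Of 8 trophectoderm markers 5 were tested, and Tfap2c and Krt7 rose, with sums of 1676 and 1677 against 3695 and 3833. Tfap2c alone had 1229 and 1115 against 2947 and 3199.8, and Ascl2, Eomes and Hand1 did not pass. The part of these markers in the results on replication genes was not tested. In bulk samples fewer cells of a type and less RNA per cell cannot be told apart, and the share of cells in S phase was not measured.

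Some replication transcripts were lower in Chd4 knockdown cells, by small amounts, and most of the genes did not pass. The spread of the falls over the complexes was not tested. Of the 49 genes 17 (34.7%) fell at an adjusted p under 0.05 in limma, 0 rose and 32 did not pass. Of all 12615 genes tested, 8.81% fell and 11.7% rose by the same rule. The replication genes are bright on this array, and among the 5706 genes at least as bright as the dimmest member other than Tyms, 13.0% fell and 14.6% rose. At an unadjusted p under 0.05, 22 replication genes were lower and 4 higher, where the shares of all genes were 15.1% and 18.7%. Of the 49 genes 36 were lower in log2 difference, whether or not they passed, as were 48.1% of all genes. The median log2 difference was -0.12 over the 49 genes and 0.014 over all genes tested. Folds of the genes that fell ran from 1.13 to 1.71, with a median of 1.24, and only Gins2 and Pold2 fell by at least 1.5-fold.

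The count of 17 depended on the processing. It was 1 gene, Gins2, when limma shrank all variances to 1 value instead of an intensity trend, a setting in which 1.01% of all genes fell. It was 10 when the probe sets of each gene were averaged, where 5.63% of all genes fell. In each fit with 1 array left out, fewer genes fell, both among the 49 and among all genes tested. The median log2 difference over the 49 genes then lay between -0.16 and -0.094, against 0.0082 to 0.028 over all genes. At the level of probe sets 29 of the 100 tested fell and 1 rose, where 6.77% and 7.46% of the 27022 probe sets tested did. Lower log2 differences were found at 78 of the 100, against 51.4% of all probe sets. Without control replicate 2 fewer probe sets fell, among those of the 49 genes and among all tested. Without the intensity trend 0 fell, and 0 of all 27022 probe sets did.

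**Figure D1:**
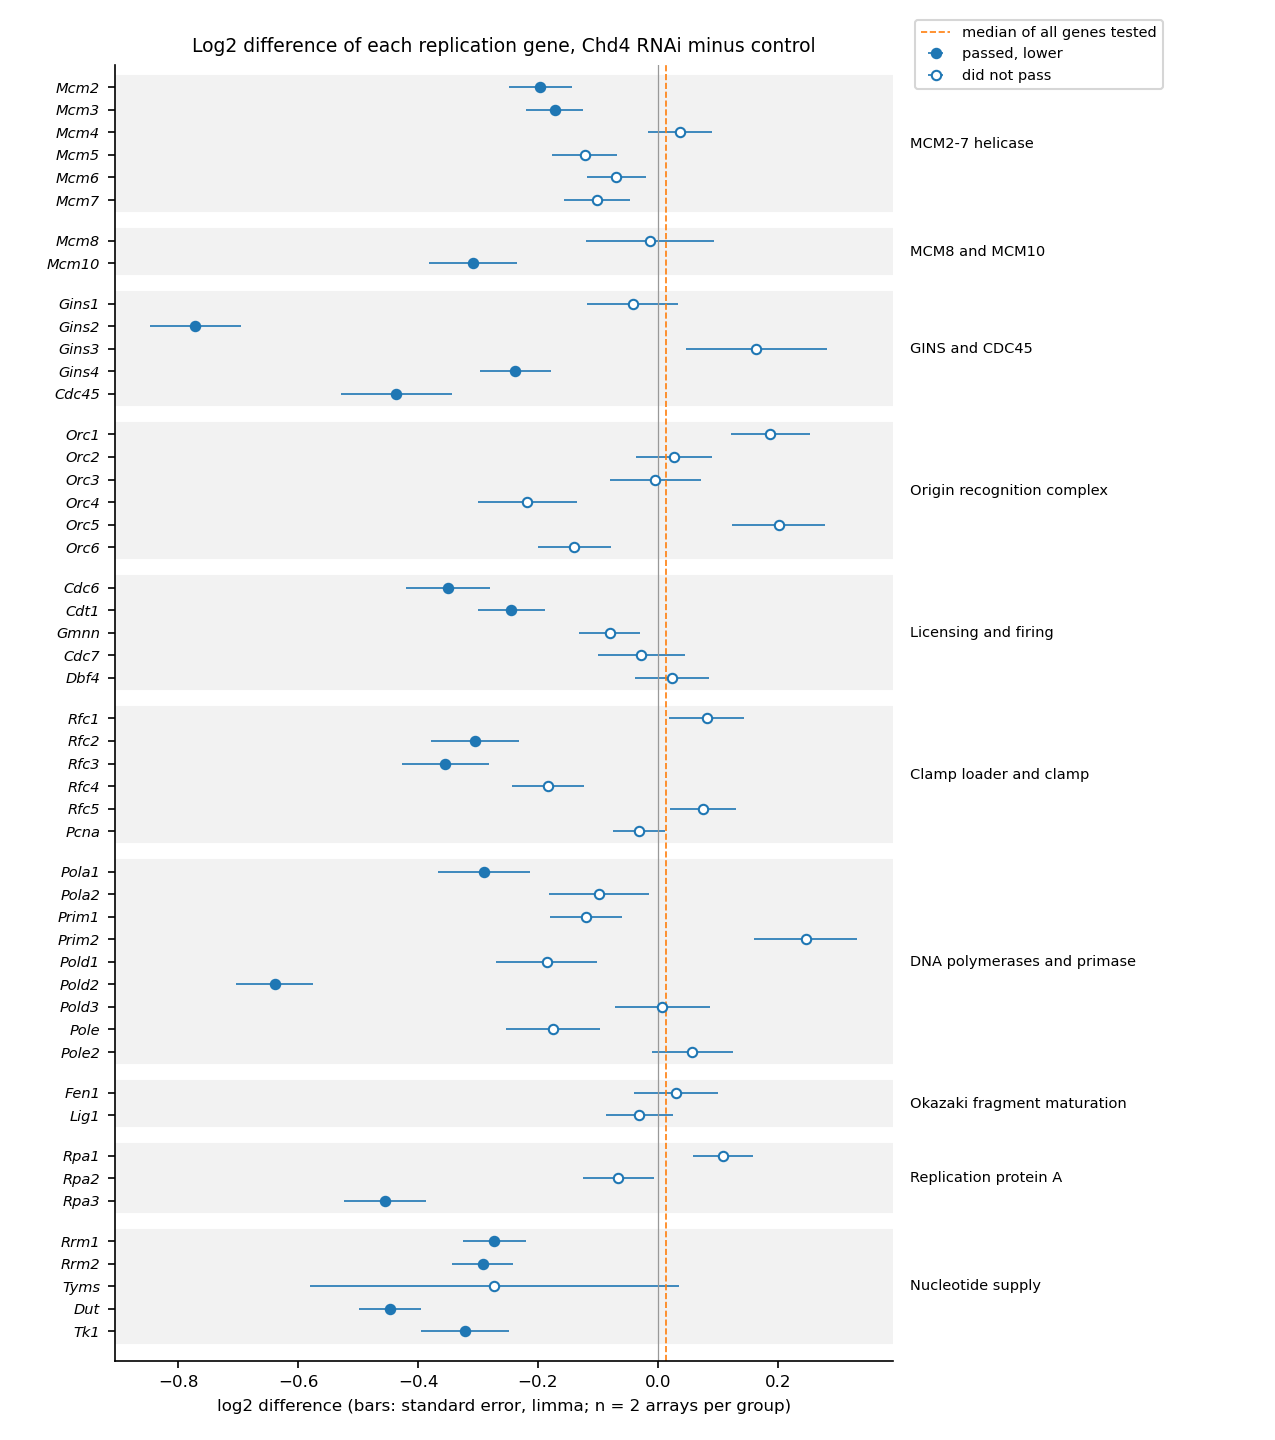
Log2 difference of each of the 49 replication genes at its brightest probe set, Chd4 RNAi minus control, with bars of 1 standard error from limma (n = 2 arrays per group). Filled points are the 17 genes that fell, open points the 32 that did not pass, and the dashed line is the median of all 12615 genes tested, 0.014. Most points lie to the left of that line, with Gins2 and Pold2 farthest.

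Windows of 300 bases around the transcription start (250 before and 50 after, RefSeq, GRCm38.p6) were found for 41 of the 49 genes, as 50 windows. They were searched on both strands for the E2F motifs TTTCCCGC, TTTGCCGC, TTTCGCGC and TTTGGCGC, which E2F factors of the G1/S transition are known to bind, and for the CCAAT box, known for binding NF-Y. An E2F motif was found in 16 of the 50 windows (32.0%), against 2.26% of all 32851 windows. The share was 33.3% (5 of 15) in windows of genes that fell and 31.4% (11 of 35) in those of genes that did not pass. A CCAAT box was found in 52% of the replication windows and 37.4% of all windows. Its share was 66.7% (10 of 15) in windows of genes that fell and 45.7% (16 of 35) in the others. These differences between genes that fell and genes that did not pass were not tested, and a match is a description of letters and not a bound site.

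Shown here are the 140 bases before the start of 4 genes, 5′ to 3′ on the strand of the gene, with motif matches in capitals. None of the 4 stretches overlaps a gene of the RefSeq table. Rfc3 (chr5:151651209-151651348, minus strand) fell and has an E2F motif 3 to 10 bases before its start. Mcm6 (chr1:128359706-128359845, minus strand) did not pass at its brightest probe set, although its E2F motifs are the most numerous of the 4. Its first run of 12 capitals holds matches on both strands that overlap, and CCAAT boxes lie at 53 to 57 and at 10 to 14 bases before the start. Pold2 (chr11:5878257-5878396, minus strand) and Rpa3 (chr6:8259142-8259281, minus strand) were among the genes with the smallest p. Within these bases they have CCAAT boxes, here as ATTGG on the printed strand, and no match to the E2F letters. Rfc3 and Mcm6 were chosen after their values were seen.
Rfc3: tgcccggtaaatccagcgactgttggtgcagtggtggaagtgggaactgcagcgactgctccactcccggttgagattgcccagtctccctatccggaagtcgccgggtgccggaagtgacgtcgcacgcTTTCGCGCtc
Mcm6: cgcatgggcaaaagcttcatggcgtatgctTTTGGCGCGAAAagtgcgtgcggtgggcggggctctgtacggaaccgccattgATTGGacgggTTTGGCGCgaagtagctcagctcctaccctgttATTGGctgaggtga
Pold2: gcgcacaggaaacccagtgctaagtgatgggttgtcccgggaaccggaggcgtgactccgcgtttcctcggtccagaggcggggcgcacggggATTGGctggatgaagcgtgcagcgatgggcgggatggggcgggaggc
Rpa3: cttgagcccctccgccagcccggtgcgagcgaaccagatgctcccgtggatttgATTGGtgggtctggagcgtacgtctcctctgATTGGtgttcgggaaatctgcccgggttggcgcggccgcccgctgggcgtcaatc

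**Figure D2:**
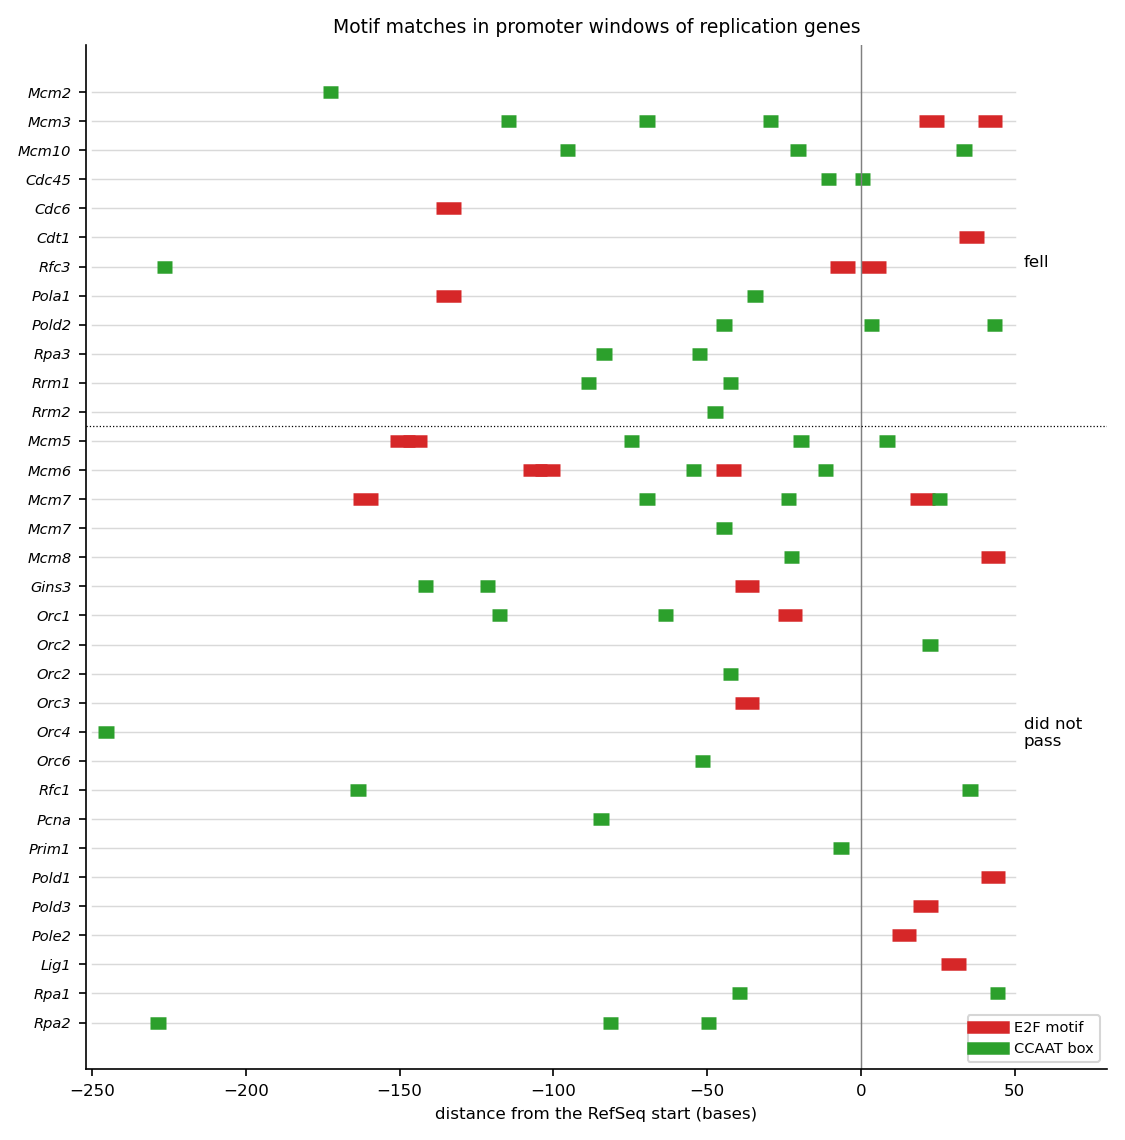
Positions of E2F motifs (red) and CCAAT boxes (green) in the promoter windows that hold at least 1 match, 33 windows of 31 replication genes, as distance in bases from the RefSeq start. The 12 windows above the dotted line belong to genes that fell and the 21 below it to genes that did not pass. Both motifs occur on both sides of the line.

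The origin recognition complex, which marks origins, held no gene that passed. None of its 6 genes, Orc1 to Orc6, fell or rose in limma, where 13.0% and 14.6% of genes as bright as the replication genes did. With so few genes the count was not tested against those shares. At an unadjusted p under 0.05 in limma, 2 were lower and 2 higher, where 15.1% and 18.7% of all genes were. The median log2 difference was 0.011. Orc1, the largest subunit and an ATPase, had signals of 2568 and 2746 in the controls, against 3013 and 3037 under knockdown. Both knockdown arrays were above both controls, as for 32.5% of all genes tested. The difference on the log2 scale was 0.19 ± 0.066 SE (adjusted p = 0.0657). Its dimmer probe set was at -0.075, with groups that overlapped. Orc5 had 2833 and 3182 against 3262 and 3654, again without overlap (0.20 ± 0.078, adjusted p = 0.0928). Orc5 passed as higher when either control replicate 2 or knockdown replicate 1 was left out (0.29 and 0.28; adjusted p = 0.0462 and 0.0381). Orc4 pointed the other way, with 2079.9 and 2382 against 1983 and 1847 (-0.22 ± 0.083, adjusted p = 0.0867), and its other 3 tested probe sets were also below 0. It passed as lower without control replicate 1 (-0.32, adjusted p = 0.0371). Orc6 was at -0.14 ± 0.061 (adjusted p = 0.134), and Orc2 and Orc3 overlapped between groups. Orc2 had 3285 and 3425 against 3319 and 3515 (0.026), with its other probe sets at -0.053 and -0.057. Orc3 had 2152 and 2039 against 1987 and 2195 (-0.0042), with its other probe sets at -0.044 and 0.10.

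Of the 5 licensing and firing genes 2 fell, and both encode loaders of the helicase. Among genes as bright as the replication genes 13.0% fell, and the count was not tested against that share. Cdc6, the loading ATPase, had signals of 2241 and 2293 in the controls, against 1746 and 1811 under knockdown. The groups were well apart (log2 difference -0.35 ± 0.070 SE, 1.28-fold lower, adjusted p = 0.00506). Cdt1, its partner in loading, had 9706 and 10619 against 8565 and 8578, with the knockdown arrays almost alike (-0.24 ± 0.055, adjusted p = 0.00965). A further probe set of Cdt1 went from 4527 and 4279 to 3599 and 3446 and also fell in the probe set fit (-0.32, adjusted p = 0.00633). The call of Cdt1 ended without control replicate 2 (-0.18, adjusted p = 0.0836). Gmnn, which encodes geminin, the inhibitor of Cdt1, was at -0.081 ± 0.052 (adjusted p = 0.309). Its signals were 6764 and 6937 against 6469.7 and 6487. Cdc7, the kinase that fires origins, and Dbf4, its activating subunit, were at -0.027 and 0.024 (adjusted p = 0.833 and 0.830), with groups that overlapped.

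In the MCM2-7 helicase 2 of 6 genes fell at the brightest probe set, and 5 of 6 had both knockdown arrays below both controls. Of all genes tested 8.81% fell and 28.1% were lower without overlap. Under quantile normalization 4 of 6 fell, with Mcm5 at -0.18 and Mcm7 at -0.16 added (adjusted p = 0.0343 and 0.0309). Mcm2 had signals of 6766 and 6647 in the controls, against 5792 and 5918 under knockdown. That is a log2 difference of -0.20 ± 0.052 SE (1.15-fold lower, adjusted p = 0.0222). Mcm3 had 12622 and 12954 against 11560.3 and 11140.4 (-0.17 ± 0.048, 1.13-fold lower, adjusted p = 0.0261). A further Mcm3 probe set fell too, at -0.31 (adjusted p = 0.00536 in the probe set fit). Both changes are small, and both calls ended when single arrays were left out. For Mcm2 this was so without control replicate 1, control replicate 2 or knockdown replicate 1 (-0.18, -0.21 and -0.18; adjusted p = 0.104, 0.0634 and 0.0767). For Mcm3 it was so without control replicate 1, control replicate 2 or knockdown replicate 2 (-0.19, -0.15 and -0.15; adjusted p = 0.0551, 0.124 and 0.104).

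The other 4 helicase subunits did not pass at the brightest probe set. Mcm7 was at -0.10 ± 0.056 there (adjusted p = 0.229), with 14164 and 15809 against 13840.3 and 14053. Its other 3 probe sets all fell in the probe set fit, at -0.18, -0.25 and -0.25 (adjusted p = 0.0305, 0.0139 and 0.0197). The second of them went from 5944 and 6320.0 to 5148 and 5144. Mcm6 was at -0.069 ± 0.050 (adjusted p = 0.367) at its brightest probe set, with 11126 and 11036 against 10864 and 10268. At a further one it went from 7983 and 8691 to 7009 and 6793 and fell (-0.27, adjusted p = 0.00997). That probe set is of the _x_at kind, which can detect transcripts of other genes as well. The last of the 3 further Mcm7 probe sets is of the _x_at kind too, as are the brightest ones of Mcm5, Pold1, Pold3, Fen1 and Rrm2. The second further Mcm7 probe set and the brightest ones of Mcm3, Mcm7 and Gins2 are of the _s_at kind. Mcm5 had 14734 and 14437 against 12762 and 14072 (-0.12 ± 0.054, adjusted p = 0.136). Its other 2 probe sets lay close by, at -0.14 and -0.11, and did not pass. Mcm5 passed as lower without knockdown replicate 2 (-0.19, adjusted p = 0.0311). Mcm4 was the 1 subunit with groups that overlapped, at 9930.3 and 10596 against 10784 and 10264 (0.037 ± 0.053, adjusted p = 0.681), and its further probe set was at -0.14.

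Among the factors that turn the ring into a working helicase, 3 of 5 genes fell, where 13.0% of genes as bright as the replication genes did. Gins2, a GINS subunit, had the largest change of all 49 genes. Its signals were 2008 and 2065 in the controls, against 1169.5 and 1216 under knockdown, a log2 difference of -0.77 ± 0.076 SE (adjusted p = 5.61e-05). Its further probe set went from 2059 and 1904 to 1109 and 1032, a difference of -0.89 (adjusted p = 7.47e-05 in the probe set fit), so the probe sets of this gene gave much the same size. Cdc45, a further component of the active helicase, had 1004 and 1046 against 773 and 742 (-0.44 ± 0.093, 1.35-fold lower, adjusted p = 0.00702). A dim further probe set was at -0.69 and did not pass. Gins4 had 4592 and 4753 against 3862 and 4063 (-0.24 ± 0.059, adjusted p = 0.0158). Its call ended without control replicate 2 (-0.21, adjusted p = 0.0884) or knockdown replicate 1 (-0.20, adjusted p = 0.0717).

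The other GINS subunits, which form a single complex with Gins2 and Gins4, did not pass. Gins1 had 3486 and 3036 against 3260.1 and 3064 (-0.042 ± 0.076, adjusted p = 0.749), with groups that overlapped. Gins3 had 574 and 554 against 583 and 685 (0.16 ± 0.12, adjusted p = 0.367), and its further probe set was at 0.23 (adjusted p = 0.263). Both probe sets of Gins3 thus lay above 0 and both of Gins2 below, but the difference between subunits was not tested. Mcm10, which helps to start the helicase, fell, with 2789.9 and 2849 against 2412 and 2149 (-0.31 ± 0.074, 1.24-fold lower, adjusted p = 0.0128). Its call ended without control replicate 2 (-0.29, adjusted p = 0.0552) or knockdown replicate 2 (-0.23, adjusted p = 0.0714). A pair of far dimmer Mcm10 probe sets was at 0.054 and 0.099 and did not pass, and the average over its 3 probe sets was -0.052 (adjusted p = 0.853). Mcm8, a helicase relative known for its part in recombination, had 614 and 601 against 614 and 591 (-0.012 ± 0.11, adjusted p = 0.951).

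**Figure D3:**
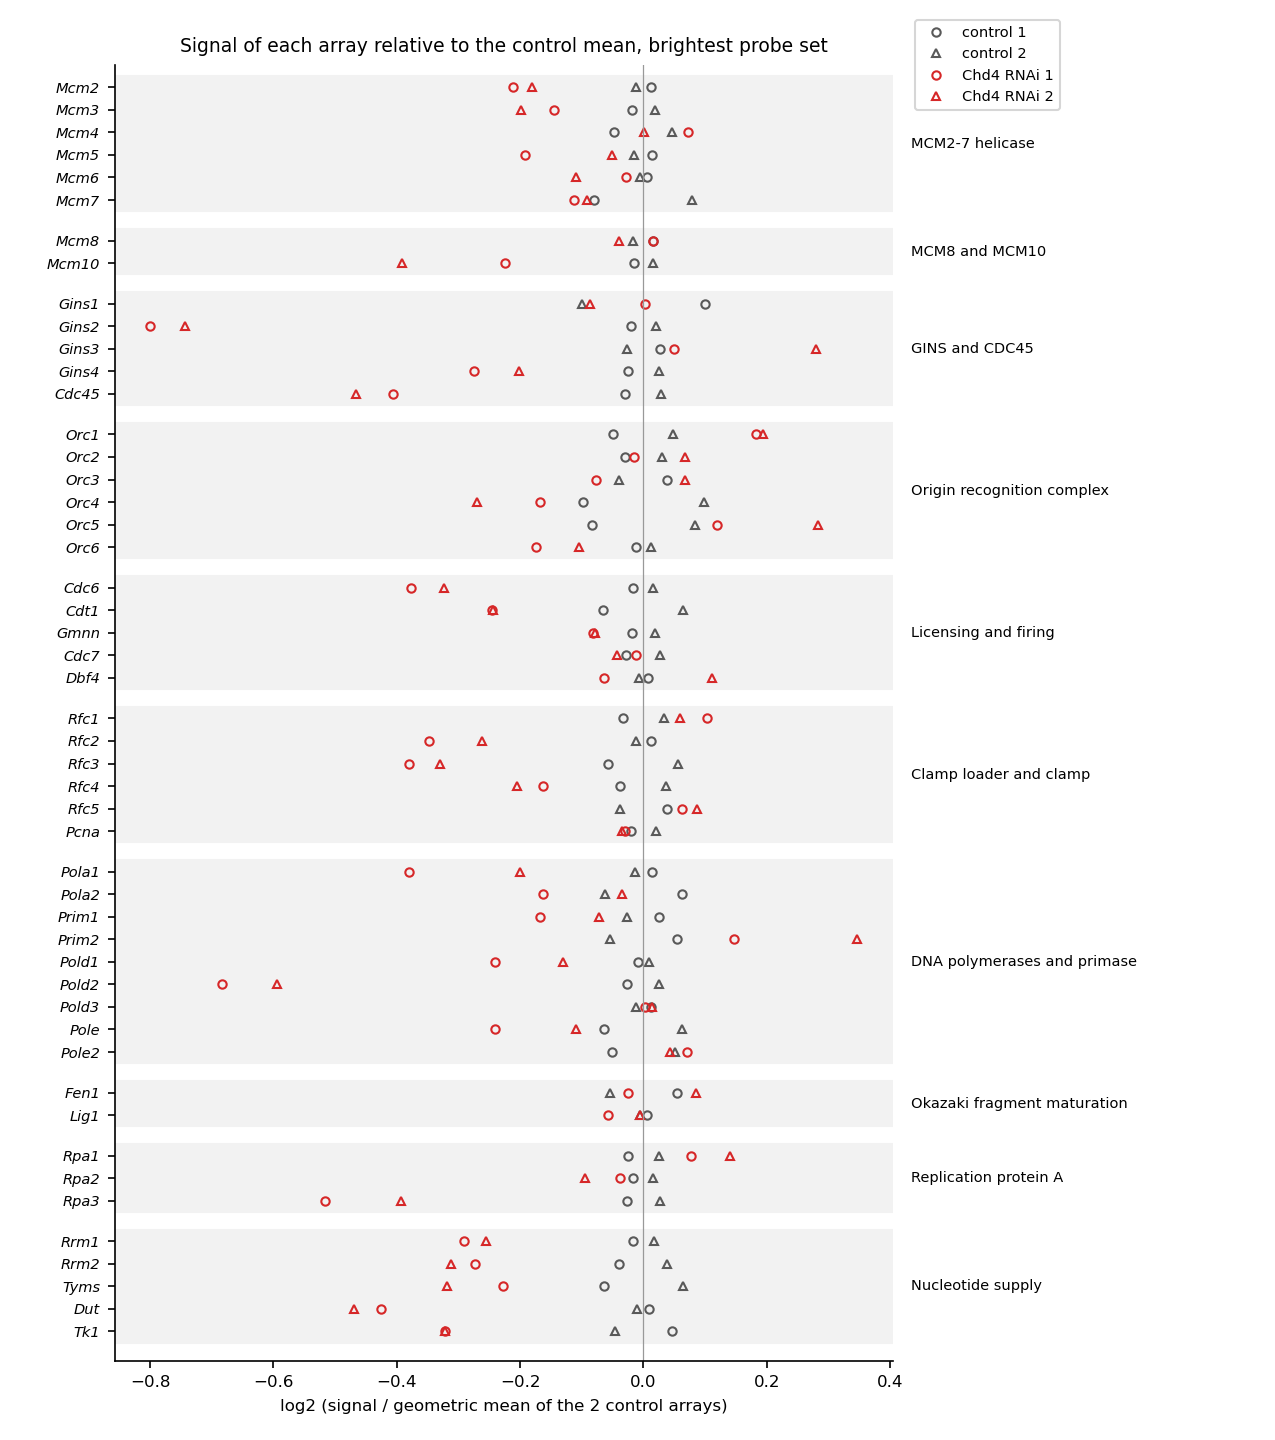
Signal of each array at the brightest probe set of the 49 genes, as log2 of its ratio to the geometric mean of the 2 control arrays. Grey marks are controls, red marks are Chd4 RNAi arrays, and circles and triangles are replicates 1 and 2. The red marks of Gins2, Pold2, Rpa3, Dut and Cdc45 lie far to the left of the grey ones, and those of Orc1, Orc5 and Prim2 to the right.

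In the clamp loader, 2 of 5 Rfc genes fell, where 13.0% of genes as bright as the replication genes did (not tested against that share). Rfc3 had signals of 2295 and 2483 in the controls, against 1834 and 1899.6 under knockdown (-0.35 ± 0.073 SE, 1.28-fold lower, adjusted p = 0.00576). Its further probe set was at -0.20 and did not pass (adjusted p = 0.119). Rfc2 had 2040.1 and 2006 against 1590.0 and 1687 (-0.30 ± 0.073, adjusted p = 0.0132). A pair of dimmer Rfc2 probe sets also fell, and by more, but both are of the _x_at kind, whose probes can match other transcripts. One went from 479 and 621 to 332 and 330.3 (-0.72, adjusted p = 0.00854) and the other from 261 and 354 to 116 and 156 (-1.17, adjusted p = 0.00572). The sizes differed between the 3 Rfc2 probe sets. At the brightest probe set the call ended without control replicate 1 (-0.29, adjusted p = 0.0633) or knockdown replicate 1 (-0.26, adjusted p = 0.0605).

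The remaining loader subunits and the clamp did not pass. Rfc4 had 3921 and 4130.1 against 3597 and 3493 (-0.18 ± 0.061, adjusted p = 0.0545), just short of the threshold. Rfc1, the large subunit, had 2979.6 and 3118 against 3273 and 3178 (0.081 ± 0.063, adjusted p = 0.406), and its other 2 probe sets were at -0.011 and -0.085. Rfc5 had 6043 and 5732 against 6149.7 and 6255 (0.076 ± 0.055, adjusted p = 0.373). Pcna, the sliding clamp itself, had 18664 and 19187 against 18537 and 18482, with the knockdown arrays only just under the lower control (-0.032 ± 0.043, adjusted p = 0.655). Quantile normalization moved it to -0.11 (adjusted p = 0.0445).

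Of the 9 genes of the replicative polymerases and primase 2 fell, where 13.0% of genes as bright as the replication genes did. The count was not tested against that share. Pold2, the subunit that holds polymerase delta together, had signals of 3874 and 4016 in the controls, against 2456 and 2612 under knockdown. No value of the knockdown group came near the controls, and the log2 difference was -0.64 ± 0.064 SE (1.56-fold lower, adjusted p = 6.42e-05). Pold2 has 1 probe set, so no second one could be set beside it. Its catalytic partner Pold1 had 1265 and 1281 against 1077 and 1163 (-0.19 ± 0.085, adjusted p = 0.15), with a further probe set at -0.28 (adjusted p = 0.0587). Pold3, another delta subunit, had 1318 and 1295 against 1308 and 1319, with overlap (0.0078 ± 0.079, adjusted p = 0.959), and its other probe sets were at -0.12 and -0.15. Pola1, the catalytic subunit of polymerase alpha, fell, with 2499 and 2450.0 against 1901 and 2154 (-0.29 ± 0.077, 1.22-fold lower, adjusted p = 0.0214). Its call ended without control replicate 1, control replicate 2 or knockdown replicate 1 (-0.28, -0.30 and -0.20; adjusted p = 0.0813, 0.0558 and 0.125).

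Among the partners of Pola1, Pola2 was at -0.098 ± 0.084 (adjusted p = 0.454; a dim further probe set at -1.02 did not pass) and Prim1, the catalytic primase subunit, at -0.12 ± 0.060 (adjusted p = 0.191). Prim2, the other primase subunit, pointed up. Its signals were 1694 and 1570.1 in the controls, against 1805 and 2074 under knockdown (0.25 ± 0.086, adjusted p = 0.0657). At a further probe set it went from 1340.0 and 1578 to 1878 and 1859 and rose in the probe set fit (0.36, adjusted p = 0.0209), the 1 rise among the 100 replication probe sets. At its brightest probe set Prim2 passed as higher without knockdown replicate 1 (0.35, adjusted p = 0.0233). Pole, the catalytic subunit of polymerase epsilon, had 2057 and 2244 against 1818 and 1993 (-0.17 ± 0.079, adjusted p = 0.144). Pole2, its second subunit, had 2475 and 2655 against 2694 and 2641 (0.057 ± 0.067, adjusted p = 0.602), with overlap, and a dim further probe set was at -0.077.

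Replication protein A showed a fall of 1 of its 3 subunits, where 13.0% of genes as bright as the replication genes fell. With so few subunits the count was not tested against that share. Rpa3, the smallest, had signals of 3176 and 3297 in the controls, against 2261 and 2463 under knockdown, a log2 difference of -0.46 ± 0.069 SE (1.37-fold lower, adjusted p = 0.00104). It has 1 probe set. Rpa1, the large DNA-binding subunit, had 10505 and 10884 against 11283 and 11784 (0.11 ± 0.049, adjusted p = 0.147), and its further probe set was at -0.052. Rpa2 had 3869 and 3958 against 3814 and 3666 (-0.066 ± 0.059, adjusted p = 0.483), with its further probe set at -0.085. At the brightest probe sets both knockdown arrays were above the controls for Rpa1 and below them for Rpa3. Of all genes tested 32.5% and 28.1% were higher and lower without overlap. At the further Rpa1 probe set both knockdown arrays were below the controls, with 6733 and 6452 against 6316 and 6398. The genes that finish Okazaki fragments, the flap nuclease gene Fen1 and the ligase gene Lig1, did not pass. Fen1 had 2901 and 2692 against 2748 and 2965 (0.031 ± 0.070, adjusted p = 0.806). Lig1 had 4800.0 and 4764 against 4596 and 4766 (-0.031 ± 0.056, adjusted p = 0.747), and the groups overlapped for both. The further Fen1 probe set was at -0.018.

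Of the 5 genes of nucleotide supply 4 fell, 3 without control replicate 1 and 0 without the intensity trend. Among genes as bright as the replication genes, 13.0% fell. Dut, whose product removes dUTP and so keeps uracil out of DNA, had signals of 8073 and 7962 in the controls, against 5969 and 5789.8 under knockdown. The log2 difference was -0.45 ± 0.052 SE (1.36-fold lower, adjusted p = 0.000164), while a far dimmer Dut probe set was at -0.069 with groups that overlapped. The average of these probe sets was -0.26, which did not pass (adjusted p = 0.137). Tk1, the thymidine salvage kinase of S phase, had 2103 and 1972 against 1629 and 1629.7 (-0.32 ± 0.073, 1.25-fold lower, adjusted p = 0.0102). Its call ended without control replicate 1 (-0.28, adjusted p = 0.0768). Rrm2, the S-phase subunit of ribonucleotide reductase, had 10078 and 10635 against 8572 and 8337 (-0.29 ± 0.051, adjusted p = 0.00245). Its other 2 probe sets also fell, at -0.40 and -0.33 (adjusted p = 0.00427 and 0.00403).

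Rrm1, the large reductase subunit, had 6809 and 6975 against 5636 and 5774 (-0.27 ± 0.053, adjusted p = 0.00426). A second bright Rrm1 probe set went from 5926 and 6219.7 to 4936 and 5341 and fell as well (-0.24, adjusted p = 0.0230). A dim one, with signals of 61.7 and 42.3 against 71.0 and 79.0, was at 0.55 and did not pass (adjusted p = 0.404). Averaging the 3 gave 0.012 (adjusted p = 0.940). Tyms, which makes thymidylate, could hardly be read, since its brightest probe set had 91.9 and 100.4 against 82.1 and 77.1 (-0.27 ± 0.31, adjusted p = 0.585). The other tested Tyms probe set was at 0.27, and the remaining 2 were under the filter.

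Of the 35 genes with at least 2 tested probe sets, 22 had all of them on 1 side of 0. The share over all genes was not computed, and 78 of the 100 tested replication probe sets lay below 0 in any case. Counts of this kind therefore do not show agreement within genes beyond that shared direction. Of the 21 genes with at least 2 probe sets in the top 15% by signal, 15 had all those on 1 side, 14 of them below 0. Of all probe sets tested 51.4% were below 0 and 6.77% fell. The 17 genes that fell had 18 further tested probe sets, of which 14 were below 0 and 8 fell. The 4 above 0 belong to Mcm3, Mcm10 and Rrm1, are dim and did not pass. In the probe set fit at least 1 probe set fell for 19 genes and at least 2 fell for 7, and no gene had probe sets that passed in both directions. Averaging every probe set of a gene, dim ones included, kept 9 of the 17 calls. Besides Mcm10, Dut and Rrm1, those it ended were Mcm2 (-0.17, adjusted p = 0.0580), Mcm3 (-0.091, adjusted p = 0.344), Cdc45 (-0.56, adjusted p = 0.104), Cdt1 (-0.59, adjusted p = 0.156) and Pola1 (-0.51, adjusted p = 0.593). Averaging added Mcm7 (-0.20, adjusted p = 0.0354) and put Mcm6 at 0.61 (adjusted p = 0.0582). The Mcm6 average includes a probe set under the filter, with 8.29 and 2.46 in the controls against 22.7 and 18.3. Both tested Mcm6 probe sets were below 0, at -0.069 and -0.27. The averages of Cdt1 and Pola1 also include a probe set under the filter. In the probe set fit, the 2 genes with a fall that are not among the 17 are Mcm6 and Mcm7.

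**Figure D4:**
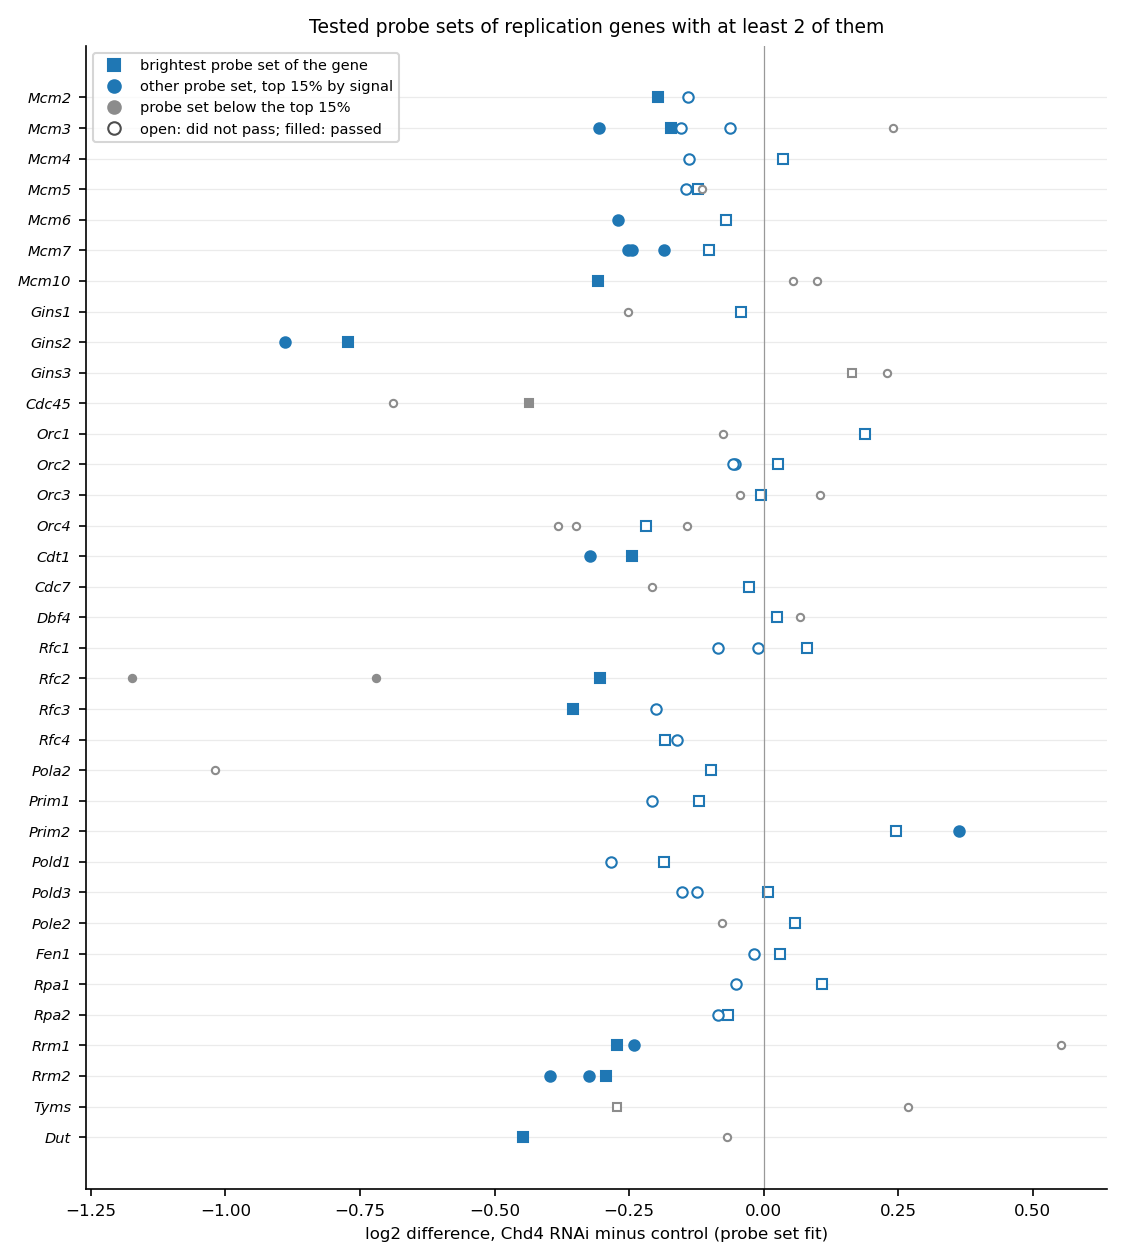
Log2 difference, Chd4 RNAi minus control, of each tested probe set of the 35 replication genes with at least 2 of them. Squares are the brightest probe set of a gene, circles the others, grey marks lie below the top 15% by signal, and filled marks passed in the probe set fit. The outlying values, such as 0.55 for Rrm1 and -1.17 for Rfc2, come from grey marks, while the blue marks of Gins2, Rrm2 and Mcm7 lie close together.

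Related genes outside the 49 were counted from lists chosen by function. Without the intensity trend, 1 gene of the E2F and G1/S list fell and no other gene of these 5 lists passed. Of all genes tested 8.81% fell and 11.7% rose, and of those as bright as the replication genes 13.0% and 14.6%. Of 33 fork, firing and checkpoint partners 4 fell and 2 rose, with a median log2 difference of -0.043, so neither share stands above that of bright genes. The checkpoint kinase gene Chek1 fell from 2588 and 2712 to 1994 and 2237 (-0.33 ± 0.076 SE, adjusted p = 0.0110), and the checkpoint clamp gene Hus1 fell 1.22-fold (adjusted p = 0.0140). Pold4, the accessory subunit of polymerase delta, fell from 321 and 306 to 224 and 189.5 (-0.60 ± 0.17, adjusted p = 0.0283). The nuclease and helicase gene Dna2 fell 1.16-fold (adjusted p = 0.0335). Ticrr, an origin firing factor, and Tipin, of the fork protection complex, rose by 0.32 and 0.16 on the log2 scale (adjusted p = 0.0382 and 0.0392). With each array left out in turn, 0 to 3 of these partners fell and 0 to 1 rose, the 0 falls being without control replicate 2. Of 13 tested genes that assemble chromatin behind the fork, 0 passed in limma (1 lower and 2 higher at an unadjusted p under 0.05), at a median of 0.047. Without control replicate 1 or knockdown replicate 1, 1 and 2 of them rose.

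Among 25 other enzymes of nucleotide synthesis 5 fell and 0 rose (3 higher at an unadjusted p under 0.05), at a median of 0.013. The serine hydroxymethyltransferase genes Shmt1 and Shmt2 fell 1.35-fold and 1.28-fold (adjusted p = 0.000714 and 0.00532). Ppat, the entry enzyme of purine synthesis, fell 1.22-fold (adjusted p = 0.00708). Dhodh, of pyrimidine synthesis, fell 1.28-fold (adjusted p = 0.00969). Without control replicate 2 or knockdown replicate 1 the falls were 3.

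Of 28 E2F and G1/S regulators 11 fell and 1 rose, at a median of -0.19. The D-type cyclin genes Ccnd2, Ccnd1 and Ccnd3 fell 4.18-fold, 1.46-fold and 1.44-fold (adjusted p = 3.02e-05, 0.000357 and 0.000784). E2f6, a repressor of the E2F family, rose 1.62-fold, from 884 and 721 to 1213 and 1374 (adjusted p = 0.00163). The activator genes E2f1, E2f2 and E2f3, named after their values were seen, fell 1.26-fold, 1.53-fold and 1.34-fold (adjusted p = 0.0386, 0.0260 and 0.0116). Of the other E2f genes in the list, E2f5 also fell, 1.25-fold (adjusted p = 0.0223), and E2f4, E2f7 and E2f8 did not pass. A pattern by kind of E2F factor was not tested. Without control replicate 1 the falls in this list were 6, and without control replicate 2 or knockdown replicate 1 they were 7.

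Of 26 tested genes of G2 and mitosis 0 fell in limma, also at an unadjusted p under 0.05, and 4 rose, at a median of 0.060. The share that rose is near that of bright genes (14.6%), so it is no result about the list. Ccnb2, a mitotic cyclin gene, rose from 7018 and 6794 to 8077 and 8154 (0.23 ± 0.051 SE, adjusted p = 0.00809). The mitotic kinase gene Plk1 rose 1.31-fold (adjusted p = 0.0122), Anln, of the cleavage furrow, 1.13-fold (adjusted p = 0.0285) and Cdc20, of the anaphase-promoting complex, 1.12-fold (adjusted p = 0.0400). Between 1 and 2 of them rose with each array left out in turn, 1 of them without control replicate 1 or control replicate 2. The difference between this list and the replication genes was not tested.

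**Figure D5:**
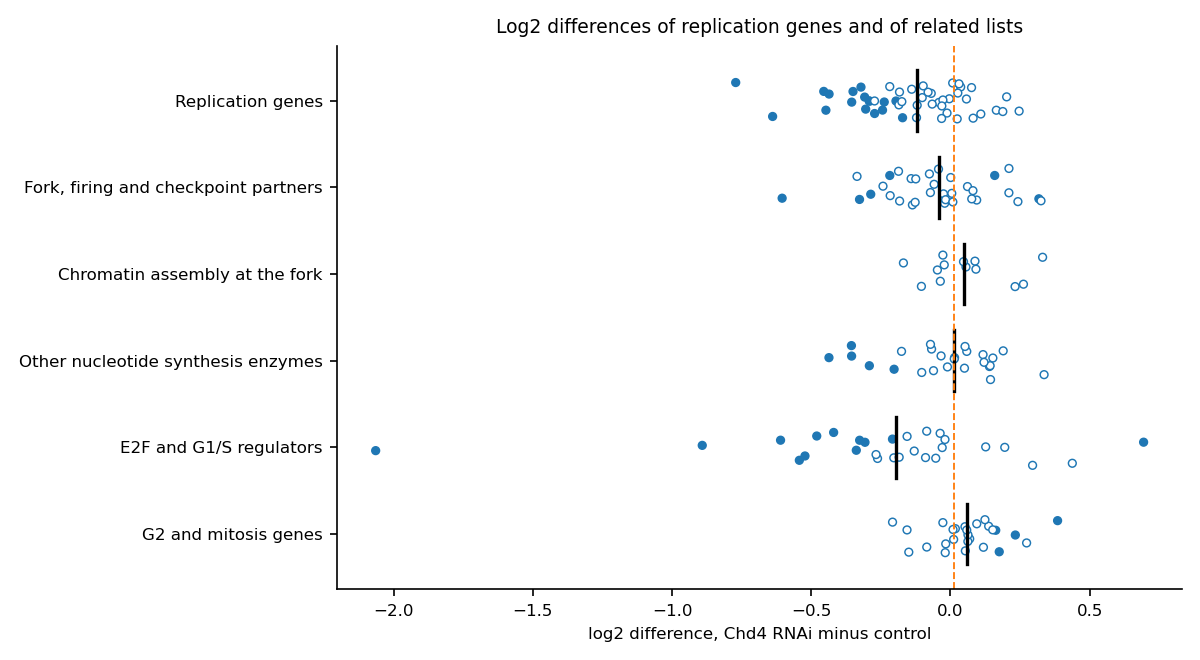
Log2 difference, Chd4 RNAi minus control, of the 49 replication genes and of the tested genes of 5 related lists. Filled points passed the test, black bars are list medians, and the dashed line is the median of all genes tested; points are spread vertically for visibility. The medians are -0.12 for the replication genes, -0.19 for E2F and G1/S regulators and 0.060 for genes of G2 and mitosis.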

How the data were processed

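Each deposited value is the linear-scale intensity of a probe set on an array. MAS5 produced it, per the submitters' processing notes, with a version and scaling target not given in the sources used here. A mean without 2% in each tail, 496.5 to 497.2 on every array, puts the arrays on 1 scale. Groups were taken from sample titles and genes from the platform annotation, in which 34945 probe sets had 1 symbol, 932 several and 9160 none. Control probe sets (64) were left out. Log2 signals, without a pseudocount, of the top 60% of probe sets (signal 42.4 or more) were compared with two-sided tests in limma 3.58.1 under R 4.3.3, with an intensity trend, over 12615 genes at their brightest probe set or over 27022 probe sets, with Benjamini-Hochberg adjustment over all of them and a threshold of 0.05. Errors are standard errors of that fit (2 residual degrees of freedom). On simulated data of 12615 genes for this comparison the fit recovered 8%, 52% and 70% of the genes changed 1.2-fold, 1.5-fold and 2-fold. Above the median brightness it recovered 19%, 81.2% and 100%, and there were 4 false calls in all. Only 50 genes were changed at each fold, where 1112 fell and 1480 rose in the data, so recovery in the data can differ. Spreads were drawn from the fitted intensity trend, so the simulation does not check that trend. Every array's signal is given for replication genes that fell, for the smallest p of each subcomplex and, at the brightest probe set, where probe sets of a gene differ in sign. Up to 4 genes per related list are named by smallest p. Ticrr, Tipin, E2f1, E2f2, E2f3, E2f4, E2f5, E2f7 and E2f8 were added after their values were seen. The members and lists were chosen with earlier results of these data known. Alternatives changed the pseudocount, normalization, filter, trend, replicate block, choice of probe set and the arrays included.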

Additional observations from a re-analysis of the deposited data

How the results depend on the processing

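Without the intensity trend 1 replication gene fell in limma, where 1.01% of all genes tested did. At the level of probe sets 0 fell and 0 rose, among those of replication genes and among all 27022 tested. Averaging all probe sets of a gene left 10 falls, where 5.63% of all genes fell, and turned Rrm1 to 0.012. With each array left out in turn, falls were 11 to 16 for genes and 13 to 29 for probe sets, and rises 0 to 2 and 0 to 3. For arrays that share a replicate number in the titles, deviations from group means had r = 0.018 across the 12615 genes. With 2 arrays a group both pairs give this same value. Whether arrays were paired by experiment cannot be told from it. With a replicate block 16 genes and 26 probe sets fell, and Mcm3 lost its call (adjusted p = 0.0529). A pseudocount of 16, quantile normalization, the top 40% of probe sets and no filter gave 17, 20, 18 and 16 falls and 0 rises of genes. Leaving out _s_at and _x_at probe sets, added after the data were seen, gave 18. That setting ended the call of Mcm3 (-0.15, adjusted p = 0.0630). It added Mcm7 (-0.18, adjusted p = 0.0191) and Pold1 (-0.28, adjusted p = 0.0430). Of the 49 genes 14 changed the sign of their difference under some setting, Rrm1 alone among the 17. Signals near the filter limit Tyms and the dim probe sets.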
